A study of Mus musculus with 18 samples.

Results

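The response of bone marrow-derived macrophages (BMDM) to oxidized low-density lipoprotein (Ox-LDL) was compared between *Slc7a7*-/- and *Slc7a7*+/+ mice, called KO and WT. The quantity compared was the change with Ox-LDL within 1 mouse, in KO minus in WT, so that a positive difference means a relatively higher transcript level with Ox-LDL in KO. It came from 12 of the 18 libraries of the series, a control and an Ox-LDL culture from each of 3 WT and 3 KO mice, and covered 12290 of the 31053 listed genes. The transcriptional responses of both genotypes had the same main features: the cholesterol transporters *Abca1* and *Abcg1* and the receptor *Cd36* rose, and sterol synthesis, interferon-stimulated and inflammatory genes fell, with the counts given under each group. No gene passed an adjusted p of 0.05 for a difference in response between the genotypes in edgeR (0 of 12290, 0%). At an unadjusted p under 0.05 there were 496 genes (4.04% of those tested), 224 with a higher response in KO (1.82%) and 272 with a lower one (2.21%). That share was below the 0.05 that evenly spread p-values would give if no gene differed.

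The mice were C57Bl/6J and 12 weeks old. In KO, *Slc7a7* was deleted with LysM-Cre, which acts in cells that use the *Lyz2* promoter, so that the knockout is restricted to myeloid cells and need not be complete in every cell. Whether the *Slc7a7*+/+ mice carried LysM-Cre is not given in the sources used here. Of each mouse, 100000 macrophages grown from bone marrow were seeded per culture and given vehicle or 100 µg/mL Ox-LDL for 24 h. The other 6 libraries, cultures of the same mice with acetylated LDL, entered the filter on low counts, the scaling and the estimates of the spread and of each mouse's level. They were not part of the contrast itself.

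Macrophages take up oxidized LDL through scavenger receptors and become foam cells, the lipid-filled cells of atherosclerotic plaques. Sterols from the particle act on opposing programmes: oxysterols activate the liver X receptors (LXR), which induce cholesterol efflux transporters, and cholesterol in the endoplasmic reticulum keeps the SREBP factors from inducing sterol synthesis and LDL uptake. Oxidized lipids also activate NRF2, a factor that induces antioxidant and detoxifying enzymes. SLC7A7 is the light chain of the y+L amino acid transporter, which exports cationic amino acids such as arginine and lysine in exchange for neutral ones such as glutamine. Arginine, glutamine and leucine are among the amino acids that feed the mTORC1 kinase at the lysosome and whose shortage induces ATF4 targets, so genes of these routes were examined beside the lipid genes.

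*Slc7a7* itself was lower in KO in both media. It stood at 11.1, 12.6 and 21.1 CPM (counts scaled for library size, for mice 1, 2 and 3) in the WT control libraries and at 10.2, 4.33 and 5.16 in the KO controls. With Ox-LDL the values were 28.7, 25.9 and 29.3 in WT and 10.1, 10.9 and 8.67 in KO. In both media every KO library was below every WT library, and transcripts remained in all KO libraries. The change with Ox-LDL was 0.89 in WT (log2 fold change, adjusted p = 0.062 in edgeR) and 0.60 in KO (adjusted p = 0.436). The difference in response of *Slc7a7* was -0.29 (SE 0.47, 95% interval -1.25 to 0.67), which is smaller than its error. Without KO mouse 1 its sign turned, to 0.15.

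The libraries carried the genes of macrophages, with *Csf1r*, the receptor of the macrophage growth factor, at a mean of 2257 CPM and *Adgre1*, which encodes F4/80, at 1523 CPM. All 12 macrophage markers were tested. With Ox-LDL 2 rose and 5 fell in WT, and 2 rose and 6 fell in KO. The median difference in response of these markers was -0.025. Among the markers of other cells, none of 8 erythroid and none of 8 mast cell or basophil markers had enough counts to test, and 1 of 10 lymphoid, 2 of 9 dendritic cell and 5 of 10 stromal or endothelial markers did. Neutrophil granule genes were present and are described further on. Total counts per library ranged from 1067282 to 1716434, and 3 counts, the floor used for a gene at 0, corresponded to 1.73 to 2.79 CPM. *Xist* and Y-linked counts showed 1 mouse of each genotype to be female, WT mouse 2 and KO mouse 1, so sex was balanced over the genotypes but not matched by number. In the labels all WT libraries were numbered before all KO libraries. What these numbers stand for is not given in the sources used here. Any effect tied to that order cannot be told apart from genotype for levels.

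Across genes the responses in WT and KO went the same way. With Ox-LDL, 188 genes rose in WT (1.53% of those tested) and 351 fell (2.86%), against 290 that rose (2.36%) and 592 that fell (4.82%) in KO. Under scaling to library size alone the KO genes split into 415 that rose among 886, or 46.8% in place of 32.9%. Both counts depend on single mice: the WT count of 539 became 323 without WT mouse 2 and 334 without WT mouse 3, and the KO count of 882 became 563, 495 and 493 without KO mouse 1, 2 and 3. Of the genes called, 414 were called in both genotypes, which is 76.8% of the WT calls and 46.9% of the KO calls, and all 414 had the same direction, 120 higher and 294 lower with Ox-LDL. Of the 539 WT calls, 530 (98.3%) had the same sign in KO, and of the 882 KO calls 853 (96.7%) had the same sign in WT. Over 8614 genes with a mean of at least 10 CPM, Pearson's r of the WT and KO responses was 0.656, a description across genes, which are not independent replicates.

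**Figure D1:**
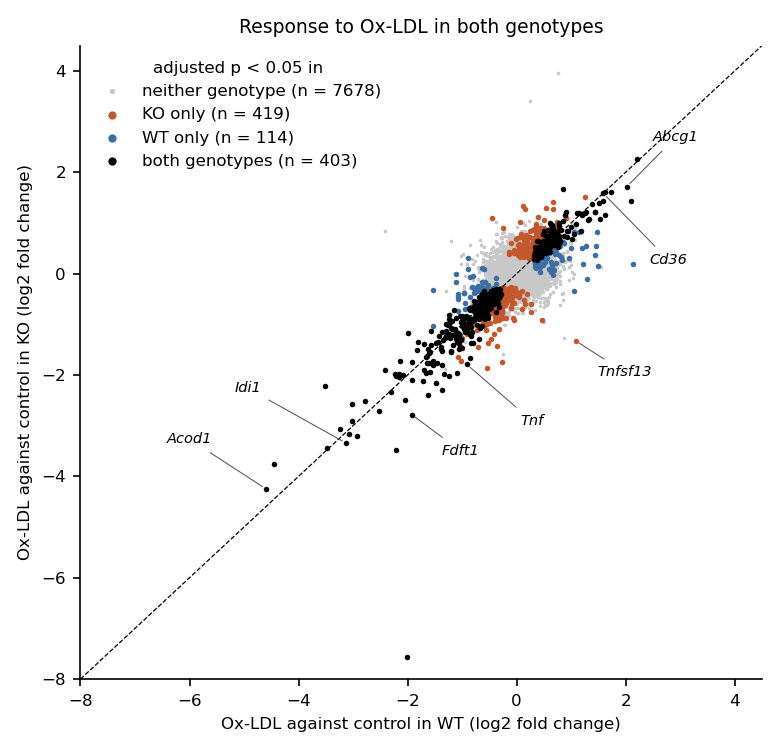
Log2 fold change with Ox-LDL in KO (vertical axis) against WT (horizontal axis) for 8614 genes with a mean of at least 10 CPM, coloured by the genotype in which adjusted p was under 0.05. The 403 genes called in both lie along the dashed line of equal response. *Fdft1*, *Tnf* and *Tnfsf13*, the last called in KO alone, lie below it, and the 1 black point far below the rest is *Gm45837*, with 0 counts in every KO library given Ox-LDL.

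A call in 1 genotype alone did not amount to a difference between the genotypes. Of 468 genes called only in KO, 88 had an unadjusted p under 0.05 for the difference, all with the larger change in KO, and of 125 called only in WT 29 did. Over all genes called in either genotype 134 did (13.3%), against 4.04% of all genes tested. These genes were sorted by calls from the same libraries, which by itself raises such a share, so their shares are descriptions. Of the 1007 genes called in either genotype, 771 had a 95% interval of the difference within -1 to 1 on the log2 scale. Among genes of at least 10 CPM, the median SD over mice of the change per mouse was 0.275 in WT and 0.231 in KO. The median absolute difference in edgeR was 0.165 for these genes. It compares means of 3 mice, whose error is smaller than an SD of single mice, so the values are not directly comparable. The per-mouse changes of KO lay all above those of WT in 535 genes (4.35%) and all below in 641 (5.22%). For a single gene of 3 mice against 3 the smallest p of an exact permutation test is 0.10, so the test of a difference rests on the edgeR model. With no difference, a separation in either direction has that same probability of 0.10, and both shares together were close to it.

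Differences and responses are given as log2 fold changes, and a range in parentheses after a difference is its 95% interval, not adjusted for the number of genes. The adjusted p of the difference was 1 for the genes named in the text, other than those for which another value is printed and *Gm42674*, *Hist1h2ah*, *Hist2h2aa2* and *Pa2g4*, with 0.526, 0.526, 0.709 and 0.709 in edgeR. How small a difference could be seen depended on the level of the gene. The median half-width of the 95% interval of the difference was 2.95 for genes under 5 CPM, 1.26 at 5 to 10, 0.864 at 10 to 20, 0.590 at 20 to 50, 0.421 at 50 to 100 and 0.309 at 100 CPM or more. The interval lay within -1 to 1 for 6585 genes (53.6%), nearly all of those above 50 CPM, 80.1% of those at 20 to 50 CPM and 24.4% of those at 10 to 20 CPM. Among the lists described here, the interval lay within -1 to 1 for 4 of 20 inflammatory genes, 15 of 22 amino acid transporters and 22 of 26 NRF2 targets. The count of 0 genes held in edgeR with other scalings and in limma (506 genes at an unadjusted p under 0.05). DESeq2 called 2 genes, *Gm26920* and *Gm38303*, neither with more than 4 counts in any library, and 101 genes at an unadjusted p under 0.05. Without the filter on low counts edgeR called 17 genes, and without WT mouse 1, 2 or 3 the count was 4, 9 or 1, without KO mouse 3 it was 2, and without KO mouse 1 or 2 it was 0.

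The main cholesterol efflux transporters rose in both genotypes. *Abca1*, the transporter that loads cholesterol onto apolipoprotein A-I, had 60.3, 154 and 155 CPM in the WT control libraries, 335, 439 and 372 with Ox-LDL in WT, 79.0, 169 and 179.9 in the KO controls and 407, 447 and 432 with Ox-LDL in KO. Its response was 1.63 in WT and 1.61 in KO (adjusted p = 2.1e-08 and 7.4e-09 in edgeR), and the difference of -0.015 had a 95% interval of -0.51 to 0.48. Each mouse contributed a rise, and the per-mouse changes of the genotypes overlapped. *Abcg1*, which passes cholesterol to HDL, rose by 2.02 in WT and 1.72 in KO, with a difference of -0.30 (-0.72 to 0.11). *Mylip*, a ubiquitin ligase induced by LXR, rose by 1.2 and 1.15, and *Arl4c*, a small GTPase that is likewise an LXR target, by 0.65 and 0.96 with a difference of 0.31 (-0.01 to 0.63). Of 15 tested LXR and efflux genes, 4 rose and 2 fell in WT and 4 rose and 4 fell in KO. With scaling to library size the KO counts were 6 and 2. The median difference of the list was -0.015, against -0.020 over all genes, and its sign turned under that scaling. *Npc2*, which hands cholesterol out of the lysosome, was the 1 member with an unadjusted p under 0.05 for the difference, at -0.26 (-0.51 to -0.012).

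Uptake receptors followed the same pattern. *Cd36*, the main receptor for oxidized LDL, had 383, 406 and 393 CPM in the WT control libraries, 1019, 1425 and 1138 with Ox-LDL in WT, 432, 520.0 and 535 in the KO controls and 1033, 1947 and 1579 with Ox-LDL in KO. Ox-LDL libraries were above all controls in each genotype. Its rise was 1.59 in WT and 1.58 in KO, and the difference of -0.0088 was bounded by an interval of -0.29 to 0.27. The class A receptor *Msr1* rose by 0.62 and 0.77 with a difference of 0.15 (-0.14 to 0.44), and the mannose receptor *Mrc1* by 0.75 and 0.85 with 0.10 (-0.37 to 0.57). *Scarb1*, the HDL receptor, fell (-0.88 in WT and -0.68 in KO), and *Cxcl16*, which also binds oxidized LDL, fell as well (-1.11 and -1.2). Among 12 tested scavenger receptors, 3 rose and 2 fell in WT and 4 rose and 3 fell in KO, and none had an unadjusted p under 0.05 for the difference. The median difference of the list was 0.032.

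Genes of sterol synthesis and its control fell as a block in both genotypes, 21 of 24 tested genes in WT and 22 in KO, with no member that rose. *Idi1*, the isopentenyl diphosphate isomerase, went from 161, 137 and 153 CPM to 21.5, 17.3 and 13 in WT and from 135, 128 and 112 to 11.8, 13 and 11.6 in KO. Its change was -3.13 in WT and -3.34 in KO, with a difference of -0.21 (-0.80 to 0.38). For *Hmgcs1*, the HMG-CoA synthase, the change was -2.53 in WT and -2.70 in KO with a difference of -0.17 (-0.68 to 0.34), for *Sqle*, the squalene epoxidase, -3.23 and -3.06 with 0.17 (-0.47 to 0.82), and for *Insig1*, which holds the SREBP complex in the endoplasmic reticulum, -1.92 and -2.10 with -0.18 (-0.65 to 0.29). The median difference of the list was -0.0019.

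Among the sterol synthesis genes, 2 of 24 had an unadjusted p under 0.05 for the difference in edgeR, against 4.04% of all genes. Per-mouse changes of KO lay all below those of WT in 1 of 24, against 5.22% of all genes. That gene was *Fdft1*, which encodes squalene synthase and had the largest difference of the list among genes of at least 10 CPM. It had 101, 76.1 and 87.5 CPM in the WT control libraries, 34.0, 18.5 and 18.9 with Ox-LDL in WT, 96.5, 76.8 and 77.4 in the KO controls and 16, 8.89 and 11.6 with Ox-LDL in KO. The controls overlapped and all KO libraries given Ox-LDL were below all WT libraries given Ox-LDL. The change per mouse was -1.53, -1.96 and -2.13 in WT and -2.49, -2.93 and -2.60 in KO, without overlap, and the difference was -0.86 (SE 0.28, adjusted p = 1 in edgeR). The gene lies on chromosome 14 from 63145150 to 63179578 (GRCm38, minus strand), and its 3' end overlaps that of *Ctsb* on the plus strand, a cathepsin gene with 4836 to 6207 CPM per library. *Ctsb* itself had a difference of -0.096 (SE 0.12). Its part in the counts of *Fdft1* was not tested. *Sc5d*, a sterol desaturase later in the pathway, fell in both genotypes (-1.24 in WT and -2.02 in KO), a difference of -0.78 (-1.52 to -0.045), with per-mouse changes of -0.64, -1.12 and -1.8 in WT and -2.75, -1.56 and -1.61 in KO, which overlapped.

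Of 15 tested genes of fatty acid synthesis, 5 fell in each genotype and none rose. The 5 were *Fasn*, the fatty acid synthase, with -1.29 in WT and -1.23 in KO, *Acly*, which makes cytosolic acetyl-CoA, with -0.68 and -0.61, the desaturases *Scd2* with -1.12 and -0.88 and *Fads2* with -3.51 and -2.22, and *Aacs*, an acetoacetyl-CoA synthetase, with -1.8 and -1.35. The median change of the list was -0.82, -0.64 and -0.68 in the WT mice and -0.38, -0.41 and -0.51 in the KO mice, without overlap. For 3 mice against 3 the smallest p of an exact permutation test is 0.10, and 19 lists were examined, so this separation is a description. By gene, KO changes lay all above those of WT in 1 of 15 members, against 4.35% of all genes. The median difference was 0.089, and 10 of 15 members were above 0, but no difference among the 5 had an unadjusted p under 0.05 (the largest, *Fads2*, was 1.29 with an interval of -0.29 to 2.87). The 1 member with such a p was the desaturase *Scd1*, at a mean of 2.62 CPM, with a difference of 2.34 (0.065 to 4.62).

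Of 17 tested PPAR target and lipid droplet genes, 2 rose in WT, *Cd36* and *Plin2*, and 1 rose and 1 fell in KO, *Cd36* and *Hadha*. *Plin2*, the coat protein of lipid droplets, changed by 0.35 in WT (adjusted p = 0.0134 in edgeR) and had 0.12 in KO (adjusted p = 0.552), with a difference of -0.23 (-0.48 to 0.02). *Hadha*, of mitochondrial fatty acid oxidation, had 0.05 and -0.41, a difference of -0.46 (-0.83 to -0.09). *Fabp4*, a fatty acid binding protein, had per-mouse changes of 1.8, -0.11 and 0.022 in WT and -0.31, -0.34 and -0.83 in KO. They did not overlap, and its difference was -1.07 (SE 0.44), but the WT mean rested on mouse 1, whose control and Ox-LDL libraries had 9.28 and 35.8 CPM.

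NRF2 targets rose in both genotypes, 13 of 26 in WT and 10 in KO, and 1 and 2 fell. *Gclm* and *Gclc*, the subunits of the enzyme that limits glutathione synthesis, rose by 0.78 and 0.90 in WT and by 1.01 and 1.21 in KO, and heme oxygenase *Hmox1* by 0.62 and 0.85. The differences of these 3 were positive, from 0.22 to 0.31, and their intervals included 0. *Prdx1*, a peroxiredoxin, rose by 0.92 and 0.72, the microsomal transferase *Mgst1* by 1.01 and 0.67, and catalase (*Cat*) by 0.93 and 0.84. *Nqo1*, a quinone reductase, rose by 1.0 in WT and had 0.51 in KO (adjusted p = 0.234 in edgeR), and its difference of -0.49 had an interval of -1.2 to 0.22. The difference was below 0 in 21 of 26 members, with a median of -0.12 against -0.020 over all genes, of which the share below 0 was not counted. The median change of the list was 0.48, 0.35 and 0.38 in the WT mice and 0.057, 0.43 and 0.33 in the KO mice, which overlapped. Members with an unadjusted p under 0.05 for the difference were *Txn1* and *Slc7a11*. *Txn1*, thioredoxin, had 102, 81.0 and 70.0 CPM in the WT control libraries, 134, 75.3 and 101 with Ox-LDL in WT, 119, 99.7 and 90.2 in the KO controls and 75.8, 80.1 and 82.7 with Ox-LDL in KO. The difference of *Txn1* was -0.65 (SE 0.20), with changes of 0.39, -0.10 and 0.52 per WT mouse and -0.64, -0.31 and -0.12 per KO mouse. *Slc7a11*, the cystine importer that supplies glutathione synthesis, had per-mouse changes of 0.89, 0.98 and -0.32 in WT and -0.38, -0.52 and -0.45 in KO and a difference of -0.98 (-1.95 to -0.012).

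Amino acid genes, the group nearest to the function of SLC7A7, hardly responded in either genotype. Of 22 tested amino acid transporters, 1 fell in WT and 1 in KO, in both cases *Slc16a10*, a transporter of aromatic amino acids (-0.64 and -0.70). The median difference was -0.069, and *Slc7a11* was the 1 member with an unadjusted p under 0.05. *Slc1a5*, a glutamine transporter, had a difference of -0.43 (-1.17 to 0.30). Of 18 tested genes of arginine and glutamine metabolism, *Ass1*, the argininosuccinate synthase that remakes arginine from citrulline, changed by -1.57 in WT and -1.41 in KO, with a difference of 0.16 (-0.57 to 0.88), and no other member passed the test. *Arg1* and *Nos2*, the arginase and nitric oxide synthase that use arginine, had too few counts to test. *Ppat*, a glutamine-using enzyme of purine synthesis, had per-mouse changes of 0.19, 0.35 and 0.47 in WT and -0.81, -0.43 and 0.11 in KO, a difference of -0.76 (-1.53 to 0.024).

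ATF4 targets held 1 called gene of 23 tested, *Atf3*, a stress-induced factor that rose by 0.45 in WT and 0.43 in KO. The largest differences among ATF4 targets of at least 10 CPM were in *Phgdh*, the first enzyme of serine synthesis, at -0.85 (-1.82 to 0.12) and *Mthfd2*, a mitochondrial folate enzyme, at 0.40 (-0.19 to 0.98). The list median was -0.016. Of 25 tested genes of mTORC1 and lysosomal nutrient sensing, 1 fell in WT, and 1 rose and 2 fell in KO, while with library size scaling 1 rose and none fell in each genotype. They were *Lamtor1*, the anchor of the Ragulator complex (-0.45 and -0.40), and, in KO, *Fnip2* (0.31) and the TFEB family factor *Mitf* (-0.34). No member of either list had an unadjusted p under 0.05 for the difference, and the signs of both medians turned with scaling to library size.

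Lysosomal genes moved little. Of 28 tested hydrolases and membrane proteins 1 rose and 3 fell in WT and 4 fell in KO, and with library size scaling 3 rose and 3 fell in KO. The cathepsins *Ctsz* and *Ctsc* fell (-0.37 and -0.42 in WT, -0.58 in KO for each). The interval of the difference lay within -1 to 1 for 27 of the 28. *Atp6v0d2*, a subunit of the proton pump, had the largest difference of the list among genes of at least 10 CPM, -0.80 (-1.58 to -0.029), with per-mouse changes of 0.79, -0.22 and -0.26 in WT and -0.83, -0.32 and -0.75 in KO.

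Markers of lipid-associated macrophages, the TREM2-positive foamy cells of plaques, were among the best measured genes. *Mmp12*, *Lgals3* and *Cd5l* rose in both genotypes, by 0.78, 0.38 and 0.64 in WT and 0.68, 0.27 and 0.60 in KO, and no other of the 12 passed the test. *Trem2*, the lipid-sensing receptor that names this state, had 343, 366 and 425 CPM in the WT control libraries, 462, 435 and 475 with Ox-LDL in WT, 370.2, 447 and 416 in the KO controls and 466, 441 and 472 with Ox-LDL in KO. All 3 WT changes of *Trem2* were above 0, at 0.43, 0.25 and 0.16, and the KO changes were 0.33, -0.02 and 0.18. The difference of *Trem2* was -0.11 (-0.37 to 0.15), that of *Gpnmb*, a glycoprotein of lipid-laden macrophages, -0.044 (-0.33 to 0.24), that of *Spp1*, osteopontin, -0.19 (-0.49 to 0.11) and that of *Fabp5* -0.13 (-0.46 to 0.20). The difference was below 0 in 11 of 12 members, with a median of -0.10 against -0.020 over all genes. All 12 intervals lay within -1 to 1. The share of all genes below 0 was not counted, but a median below 0 means that more genes lay below 0 than above. Other lists also leaned below 0, with 17 of 20 mitosis and 21 of 28 lysosomal genes, while sterol synthesis was even, at 12 of 24. *Ctsb*, *Ctsd*, *Ctsl* and *Cd63* belong to both the lysosomal list and this one.

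**Figure D2:**
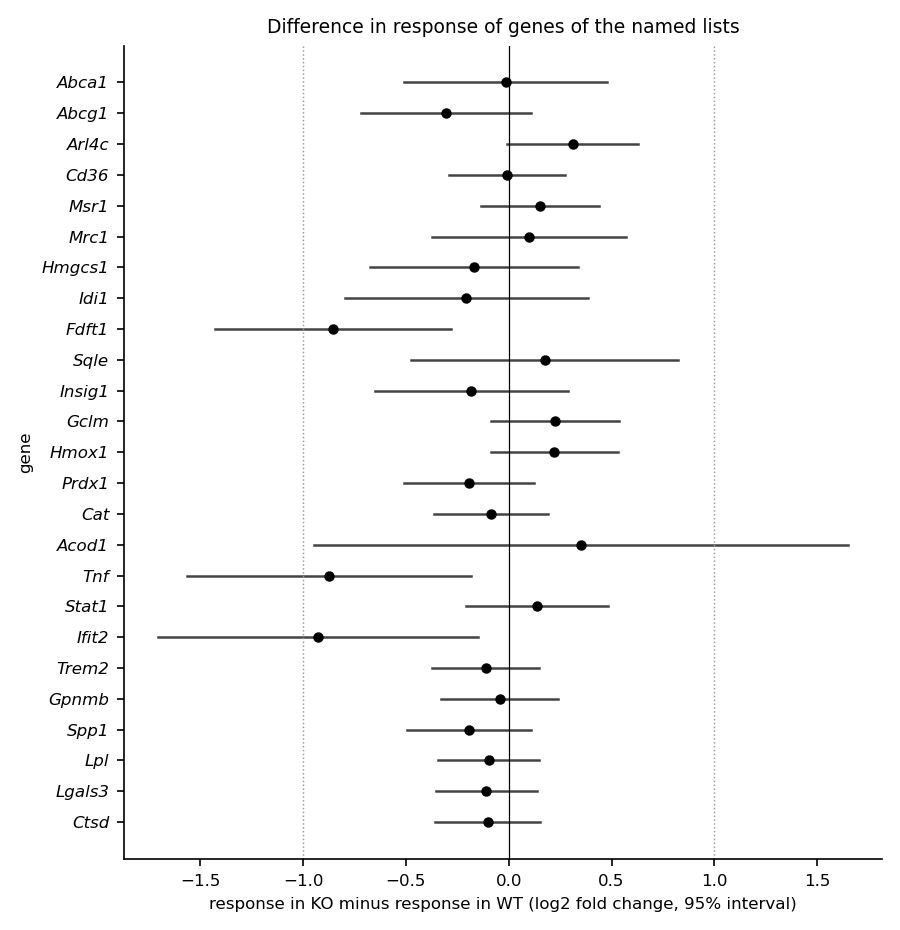
Response in KO minus response in WT (points, log2 fold change) with its 95% interval (lines) for 25 genes of the lists, and dotted lines at -1 and 1. Most intervals include 0, and those of *Fdft1* (-1.43 to -0.28), *Tnf* (-1.56 to -0.18) and *Ifit2* (-1.7 to -0.15) lie below it before adjustment for the number of genes.

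Inflammatory genes fell in both genotypes, 9 of 20 tested in each, and none rose. *Acod1*, the enzyme that makes itaconate, changed by -4.60 in WT and -4.25 in KO, from 41.8, 85.2 and 96.2 CPM to 4.48, 1.85 and 3.26 in WT and from 91.0, 57.6 and 69.6 to 3.37, 4.79 and 2.89 in KO, and the interval of its difference was wide (-0.94 to 1.65). *Nfkbia* and *Tnfaip3*, the feedback inhibitors of NF-kB, changed by -1.0 and -1.14 in WT and by -0.96 and -1.11 in KO. *Tnf* was the member with an unadjusted p under 0.05 for the difference. It had 52.9, 44.0 and 31.3 CPM in the WT control libraries, 30.5, 20.4 and 17.6 with Ox-LDL in WT, 47.0, 44.0 and 41.9 in the KO controls and 8.42, 9.58 and 19.7 with Ox-LDL in KO. With Ox-LDL, KO mouse 3 lay within the WT range and KO mice 1 and 2 below it. *Tnf* changed by -0.92 in WT and -1.79 in KO, a difference of -0.87 (SE 0.34), with per-mouse changes of -0.77, -1.06 and -0.79 in WT and -2.30, -2.05 and -1.04 in KO, which overlapped.

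Interferon-stimulated genes fell in 15 of 25 cases in WT and 15 in KO, and none rose. *Ifit2* and *Ifit3*, which encode proteins that bind viral RNA, changed by -1.37 and -2.22 in WT and by -2.30 and -3.48 in KO. The change of *Ifit2* per mouse was -1.2, -1.23 and -1.51 in WT and -2.84, -1.46 and -2.47 in KO, which overlapped, and its difference was -0.93 (-1.7 to -0.15). The change of *Ifit3* per mouse was -1.95, -1.72 and -2.28 in WT and -3.86, -2.53 and -3.26 in KO, without overlap, with a difference of -1.26 (-2.60 to 0.069). *Ifit3* shares reads with its copy *Ifit3b*, and the summed counts gave -1.43 (SE 0.55). *Ifitm3*, a membrane protein that blocks viral entry, fell in both (-0.63 in WT and -1.04 in KO), a difference of -0.41 (-0.76 to -0.066). *Xaf1* and *Oas1a* went the other way, with falls in WT (-1.54 and -1.08) and values of -0.33 and -0.50 in KO that did not pass the test, and differences of 1.21 (0.086 to 2.33) and 0.57 (0.0061 to 1.14). The median difference of the list was -0.14. The control libraries varied widely in these genes, with summed levels of 574.7 to 1519 CPM in WT and 898 to 1458 in KO.

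Matrix genes changed in both directions. *Mmp8* and *Plau*, a collagenase and the urokinase, rose by 1.74 and 0.78 in WT and 1.62 and 0.74 in KO, and *Mmp14*, a membrane-bound metalloproteinase, fell (-4.46 and -3.76). *Thbs1*, thrombospondin 1, rose by 2.10 in WT and 1.43 in KO, with per-mouse changes of 1.97, 2.15 and 1.81 in WT and 0.73, 1.54 and 1.71 in KO that did not overlap and a difference of -0.68 (-1.53 to 0.18). The median difference of the 18 tested genes was -0.18, against -0.020 over all genes. Of the 18, 13 were below 0, and the share of all genes below 0 was not counted. Members with an unadjusted p under 0.05 were *Lox*, the lysyl oxidase that crosslinks collagen, at -2.47 (mean of 5.63 CPM), and *Vcan*, versican, at -0.50 (-0.92 to -0.075). No glycolysis gene of 16 and no mitosis gene of 20 passed the test in either genotype, and of 16 genes of the unfolded protein response *Herpud1* fell in WT (-0.77). Of 20 DNA replication genes, *Pcna* and *Pola1* rose in both genotypes and *Mcm2* in KO, by 0.39 to 0.79. The median change of the mitosis list was -0.45, -0.04 and 0.57 in the WT mice and -0.19, -0.23 and -0.11 in the KO mice, and that of the replication list -0.27, 0.22 and 0.77 in WT and 0.18, 0.21 and 0.18 in KO. The WT mice ranged more widely than the KO mice in both lists, and *Cdk1*, the kinase that drives entry into mitosis, had a difference of -0.67 (-1.27 to -0.066) with overlapping per-mouse changes.

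**Figure D3:**
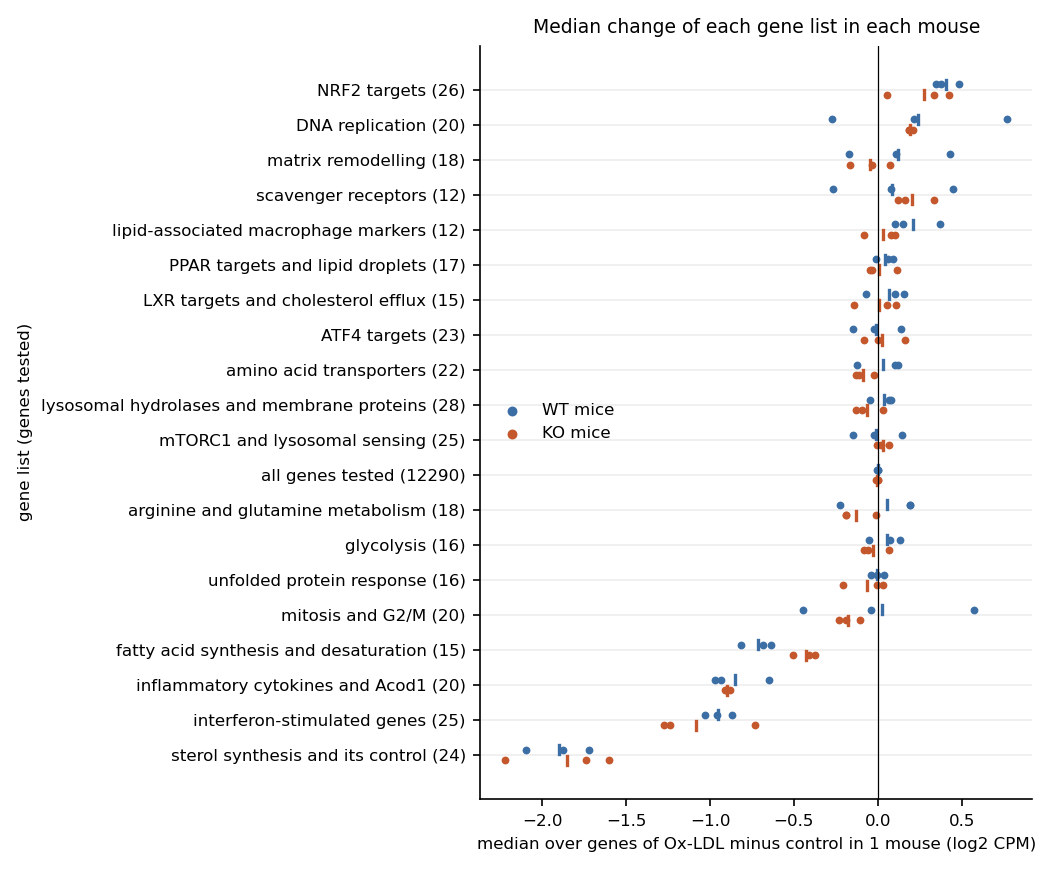
Median over the tested genes of a list (their number in parentheses) of the change with Ox-LDL in 1 mouse (log2 CPM), with 1 point per WT or KO mouse and a bar at the mean of 3 mice. The points of the genotypes overlap in most of the 19 lists, range from -2.22 to -1.6 for sterol synthesis, and are separate for fatty acid synthesis.

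The 12 genes in each direction with the smallest p for the difference, among genes of at least 10 CPM whose per-mouse changes did not overlap, were chosen for that difference, so their values are a description. None passed the adjustment over all genes, and the exact permutation p of each was 0.10, the smallest that 3 mice against 3 can give. Of the 24, *Txn1* belonged to 1 of the gene lists, the NRF2 targets. Among those with a higher response in KO, *Sec24a*, a coat protein of vesicles leaving the endoplasmic reticulum, had 52.9, 54.4 and 54.7 CPM in the WT control libraries, 43.0, 54.3 and 52.8 with Ox-LDL in WT, 34.4, 31.6 and 40.6 in the KO controls and 52.2, 57.5 and 52.6 with Ox-LDL in KO. The KO controls were below all other libraries, and the KO libraries given Ox-LDL overlapped WT. *Sec24a* rose by 0.60 in KO (adjusted p = 0.0127 in edgeR) and had -0.10 in WT, a difference of 0.70 (SE 0.22). *Usp21*, a deubiquitinase, also had its lowest levels in the KO controls, with 20.4, 11.2 and 15.3 CPM in the WT control libraries, 8.96, 12.3 and 11.7 with Ox-LDL in WT, 6.63, 6.19 and 7.74 in the KO controls and 14.3, 14.4 and 15.6 with Ox-LDL in KO. Its KO libraries given Ox-LDL were above all WT libraries given Ox-LDL, and the difference was 1.55 (SE 0.46). *Ap3m1*, a subunit of the AP-3 adaptor that sorts proteins to lysosomes, had changes of -0.21, -0.17 and -0.031 per WT mouse and 0.45, 0.27 and 0.41 per KO mouse and a difference of 0.52 (0.18 to 0.86).

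*Ankrd33b*, an ankyrin repeat gene, had 28.8, 30.7 and 46.7 CPM in the WT control libraries, 26.0, 41.4 and 43.0 with Ox-LDL in WT, 21.7, 32.8 and 17.4 in the KO controls and 34.5, 59.5 and 52.0 with Ox-LDL in KO. It rose by 1.02 in KO (adjusted p = 0.000357 in edgeR) and had 0.07 in WT (adjusted p = 0.928), a difference of 0.95 (0.39 to 1.51). *Hsdl2*, a peroxisomal dehydrogenase-like protein, rose by 0.90 in KO with a difference of 1.16 (0.37 to 1.94), from KO controls of 7.24, 10.5 and 11 CPM that lay below WT controls of 25.1, 19.5 and 19.0. In *Klhl5*, *Cep85l* and *Nt5dc3* the change was in WT, where they fell (-0.63, -0.89 and -1.11), and in KO they had 0.11, 0.32 and -0.012, which did not pass the test. The differences of these 3 were 0.74, 1.2 and 1.1. WT mouse 1 fell most in each, and without it the differences were 0.44, 0.97 and 0.95. *2810403A07Rik* had the smallest p in this direction and a difference of 0.87 (0.36 to 1.38), with control values of 52.0, 51.0 and 51.8 CPM in WT and 28.3, 53.9 and 31.6 in KO. *Hinfp*, a regulator of histone H4 genes, *Cryl1*, a sugar dehydrogenase, and *Rbm12b1*, an RNA-binding protein, had differences of 0.96, 1.06 and 1.08 and passed the test in neither genotype.

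Among genes with a lower response in KO, *Pa2g4*, a growth-regulated RNA-binding protein, had 114, 90.7 and 58.3 CPM in the WT control libraries, 107, 91.4 and 86.7 with Ox-LDL in WT, 120.0, 131 and 119 in the KO controls and 56.4, 92.4 and 94.2 with Ox-LDL in KO. The KO controls were the highest of the controls, and the genotypes overlapped with Ox-LDL. *Pa2g4* fell in KO (-0.60, adjusted p = 0.00223 in edgeR) and had 0.15 in WT, a difference of -0.75 (SE 0.19). *Edf1*, a transcriptional coactivator that also senses collided ribosomes, fell in KO (-0.40) and had 0.19 in WT, with a difference of -0.59 (-0.93 to -0.24). *Bsg*, basigin, the chaperone of lactate transporters, fell in KO (-0.35), from 222, 222 and 222 to 178, 161 and 183 CPM, and had 0.098 in WT, a difference of -0.45 (-0.74 to -0.16). *Ndufv3*, a complex I subunit, fell in KO (-0.59) with a difference of -0.86 (-1.4 to -0.31), and *Acads*, the short-chain acyl-CoA dehydrogenase of fatty acid oxidation, passed the test in neither genotype and had a difference of -0.84 (-1.35 to -0.33). *Chil3*, a chitinase-like lectin of alternatively activated macrophages and neutrophils, had 21.4, 18.1 and 11.7 CPM in the WT control libraries, 37.6, 25.9 and 28.0 with Ox-LDL in WT, 18.1, 14.2 and 18.7 in the KO controls and 5.89, 8.89 and 20.2 with Ox-LDL in KO, and a difference of -1.38 (-2.24 to -0.52). KO mouse 3 did not share the lower Ox-LDL values of *Chil3* in KO mice 1 and 2.

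**Figure D4:**
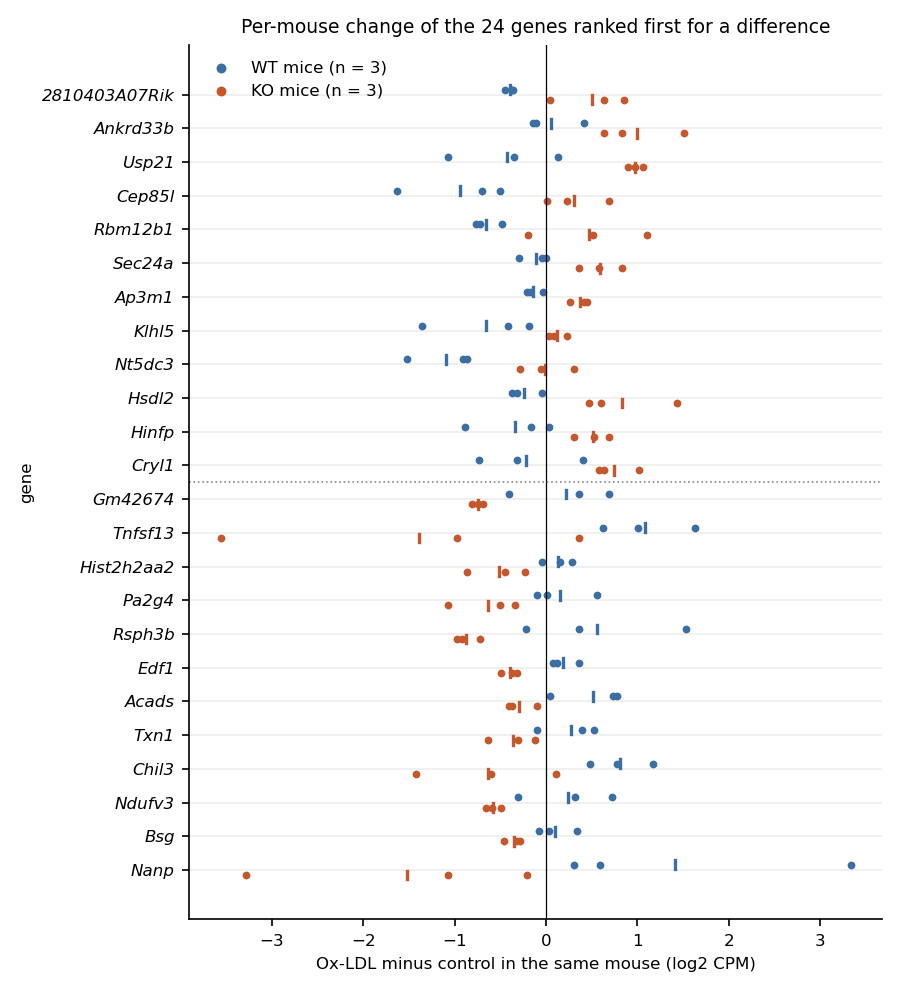
Change with Ox-LDL in each mouse (log2 CPM, 1 point per mouse, bar at the mean of 3) for the 24 genes with the smallest p for a difference, those higher in KO above the dotted line and those lower below it. The WT and KO points of each gene do not overlap because the genes were chosen for that, and *Tnfsf13* and *Nanp* have the widest spread between KO mice.

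The 3 smallest p of the whole table, and a part of the 24 genes, belonged to genes that share sequence with another gene of the table. The 3 were *Gstp1* (adjusted p = 0.0667 in edgeR), *Gm37988* (adjusted p = 0.124) and *Gm32687* (adjusted p = 0.157). *Gstp1* and *Gstp2* are neighbouring glutathione transferases on chromosome 19 (GRCm38, 4035407 to 4037985 and 4040285 to 4046023, both on the minus strand), and *Gstp1* is itself induced by NRF2. Their coding sequences in the GENCODE vM21 annotation, of 633 bases each, differ at 12 positions (98.1% identity) and share a run of 303 identical bases. Over the whole transcripts 38.5% of the 31-base words of *Gstp1* and 60.3% of those of *Gstp2* were shared with another gene. The first 60 coding bases hold 6 of the 12 differences, shown in capitals, and a read that lies wholly in sequence common to both transcripts cannot be assigned to one of the genes:
Gstp1: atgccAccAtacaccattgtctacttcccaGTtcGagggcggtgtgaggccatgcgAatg
Gstp2: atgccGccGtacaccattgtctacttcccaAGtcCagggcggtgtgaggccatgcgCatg

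*Gstp1* had 7, 16 and 11 counts in the WT controls, 19, 23 and 7 with Ox-LDL in WT, 0, 0 and 0 in the KO controls and 16, 12 and 12 with Ox-LDL in KO. *Gstp2* had 0 in every WT library, 17, 12 and 13 in the KO controls and 3, 0 and 5 with Ox-LDL in KO. The counts of one gene were thus at 0 where those of the other were not, except in KO mice 1 and 3 with Ox-LDL, where both were present. Against a floor of 3 counts per library, *Gstp1* was at least 5.11-fold higher with Ox-LDL in KO, but the summed counts of both genes gave a difference of -0.025 (SE 0.53), the reverse sign.

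Summing *Gm37988*, at 0 in every KO library given Ox-LDL and so at least 6.54-fold lower there, with *Lypla1* gave -0.37 (SE 0.24). Summing *Gm32687*, at 0 in the KO controls and at least 5.99-fold higher with Ox-LDL in KO, with *Zfp433* gave -0.17 (SE 0.41). *Hist1h2ah*, a histone gene, had 4, 38 and 0 counts in the KO controls and 0 in every KO library given Ox-LDL, so that its change in KO rested on KO mouse 2, and summing it with *Hist1h2ad* gave -1.12 (SE 0.47). These sums, chosen after seeing the data, join each gene with the gene of the table that shares most of its 31-base words.

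Of the 24 genes, 8 shared at least 20% of their 31-base words with another gene of the table, and after summing 2 of them kept an unadjusted p under 0.05 and 6 did not. *Tnfsf13*, the cytokine APRIL that sustains B cells, had the largest difference of the 24, -2.42 (SE 0.59), with 8.36, 16.8 and 8.75 CPM in the WT control libraries, 28.7, 26.5 and 18.9 with Ox-LDL in WT, 44.6, 22.9 and 11 in the KO controls and 2.53, 10.9 and 14.5 with Ox-LDL in KO. KO mouse 1 carried the largest change and KO mouse 3 a change above 0, and the adjusted p was 0.526 in edgeR with all mice and 0.0266 without KO mouse 3. It overlaps *Tnfsfm13* on the same strand and shares 58.4% of its words with it, and the sum of both had a difference of -0.29 (SE 0.22). The histone genes *Hist2h2aa2* and *Hist2h2aa1* share all words of the first, and its difference of -0.65 became -0.076 (SE 0.15). *Rsph3b* with *Rsph3a* went from -1.39 to -0.089 (SE 0.30), *Rbm12b1* with *Rbm12b2* from 1.08 to 0.22 (SE 0.21), *Nanp*, a sialic acid phosphatase, with *Gm6741* from -2.14 to -0.70 (SE 0.47) and *Nt5dc3* with *Gm49358* from 1.1 to 0.54 (SE 0.34). *Gm42674*, which had the smallest p of the lower genes, with *S100a4* went from -1.02 to -0.34 (SE 0.16), and *Chil3* was unchanged since *Chil4* had 0 counts. Of the 24 genes 12 shared under 5% of their words with any gene.

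**Figure D5:**
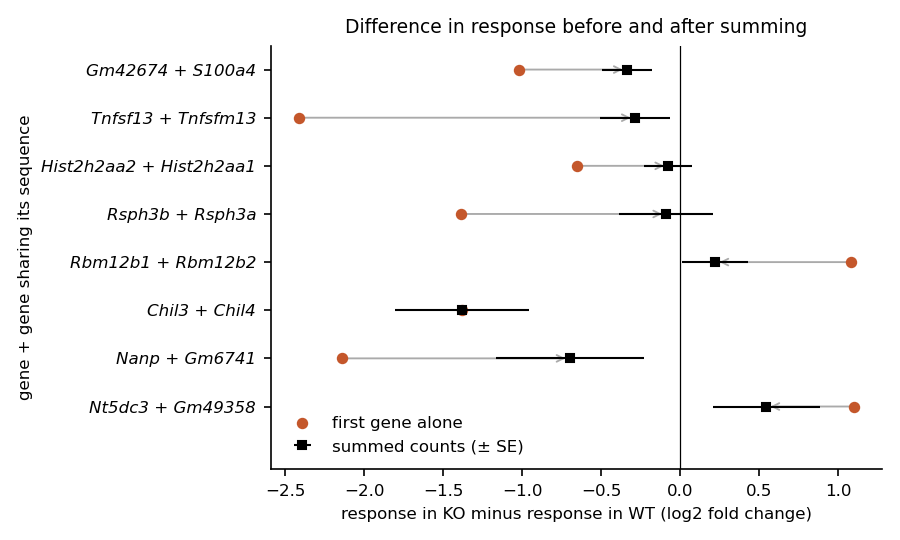
Response in KO minus response in WT (log2 fold change) of 8 of the 24 genes alone (circles) and summed with the gene that shares most of their sequence (squares with SE bars). All but *Chil3* move towards 0, *Tnfsf13* from -2.42 to -0.29.

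The share of genes with shared sequence was counted over the whole table as a background. Of 12274 tested genes found in the annotation, 9.14% held at least 20% of their words in common with another annotated gene. The share was 17.6% among 495 genes with an unadjusted p under 0.05 for the difference (13.4% of the 366 of at least 10 CPM, against 7.91% of all 8609 such genes), 33.3% among the 24 and 55.0% among the 20 with the smallest p. Of 22 genes called by any alternative fit, 21 had such shared sequence. The exception was the neutrophil granule gene *Ngp*, with 0% of its words shared and a mean of 45 counts. It had an adjusted p of 0.0081 in edgeR without the filter on low counts and did not pass the threshold in the main fit. Among the 1005 genes called for Ox-LDL itself in either genotype the share was 13.6%.

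Among neutrophil granule genes, *S100a9* and *Ngp* had an unadjusted p under 0.05 for the difference. *S100a9*, a calcium-binding protein of neutrophils and monocytes, had 52.0, 30.7 and 14.6 CPM in the WT control libraries, 111, 43.8 and 67.8 with Ox-LDL in WT, 28.3, 16.7 and 41.3 in the KO controls and 30.3, 21.9 and 45.1 with Ox-LDL in KO. It rose in WT by 1.22 (adjusted p = 0.000257 in edgeR) and had 0.19 in KO (adjusted p = 0.77), a difference of -1.03 (SE 0.33), without overlap of the per-mouse changes. *Ngp*, a granule protein, had per-mouse changes of 0.98, 0.77 and 1.21 in WT and -0.48, 0.82 and -0.92 in KO, and a difference of -1.39 (SE 0.41). KO mouse 2 lay within the WT range for *Ngp*, and KO mice 1 and 3 below it. Of 12 neutrophil markers 8 were tested, 3 rose in WT and 1 in KO, 7 of 8 differences were below 0, and their median was -0.73, against -0.020 over all genes. *Mmp8*, named above among the matrix genes, belongs to this list too. It rose in both genotypes, by 1.74 in WT and 1.62 in KO, a difference of -0.12 (-0.80 to 0.55). The median change of the list was 0.89, 0.24 and 0.80 in the WT mice and -0.17, 0.32 and -0.13 in the KO mice, which overlapped. The summed level of the list was 107 to 157 CPM in the WT controls, 191 to 339 with Ox-LDL in WT, 61.9 to 162 in the KO controls and 97.2 to 151 with Ox-LDL in KO. *Ly6g* and *Retnlg*, which mark mature neutrophils, had 0 counts in all 12 libraries, and *Elane* and *Cxcr2* had 5 and 6. The 5 tested stromal and endothelial markers summed to 10.2 to 18.2 CPM in the WT controls, 17.9 to 37.6 with Ox-LDL in WT, 10.3 to 18.1 in the KO controls and 8.89 to 16.8 with Ox-LDL in KO, and *Kdr*, an endothelial receptor, had a difference of -1.07 (-2.12 to -0.017). In bulk libraries fewer cells of a type and less RNA per cell cannot be told apart, and the part of such cells in the other differences, such as that of *Chil3*, was not tested. *Lyz2*, the locus that carries Cre and a macrophage and neutrophil gene, fell in KO (-0.56, adjusted p = 0.000259 in edgeR) and had -0.22 in WT, a difference of -0.35 (-0.64 to -0.047), with 20497, 23637 and 28591 CPM in the WT control libraries, 22739, 15543 and 25161 with Ox-LDL in WT, 15337, 11567 and 12798 in the KO controls and 10478, 7526 and 8908 with Ox-LDL in KO. All KO libraries were below all WT libraries of the same medium. Without WT mouse 1 the difference of *Lyz2* was -0.15, and without WT mouse 2 it was -0.53.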

How the data were processed

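RNA of 18 BMDM cultures was sequenced after preparation with a SMARTer Stranded Total RNA-Seq Pico kit. Reads were processed by the authors with nf-core, which ran Trim Galore for trimming, STAR for alignment (mm10) and salmon for quantification against Ensembl genes. What they deposited is 1 estimated count (also called an expected count) per gene and library, not normalized, and 6.2 to 8.1% of these values per library were not whole. The sources used here give neither the versions of these tools nor whether reads were counted by strand.

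Counts were rounded to whole numbers, and genes were kept with filterByExpr (min.count of 2, min.total.count of 10). edgeR 4.0.16 (quasi-likelihood, TMM scaling, R 4.3.3) was fitted to all 18 libraries with a term per mouse, and terms for Ox-LDL and acetylated LDL in each genotype. The difference in response was the contrast of both Ox-LDL terms, adjusted after Benjamini-Hochberg over 12290 genes with a threshold of 0.05. The residual degrees of freedom were 8, so the acetylated LDL libraries shared in the estimate of the spread. Levels are CPM after TMM scaling, and the change per mouse is the difference in log2 CPM with a prior count of 2. Replicate libraries of a group differed by more than sampling noise (chi-square per degree of freedom of 2.03 to 12.7). Floors of single libraries cover counting error only. The intervals of a difference come from the SE of the edgeR fit, which includes the estimated spread between replicate libraries.

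Libraries of 1 mouse carry the same animal ID in the labels and are paired by design. Deviations from the group means correlated between the control and Ox-LDL libraries of a mouse with r from 0.0825 to 0.449, in all 6 mice above any other mouse.

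Genes were named by rule: *Slc7a7*, *Lyz2*, *Gstp1*, *Gstp2* and 5 lipid genes, the 12 genes in each direction described above, the 5 largest rises and falls shared by both genotypes, and the 2 members with the largest difference of each list. The comparison, the lists and the rule were chosen with earlier results of these data known, and other list members were named after their values were seen. The largest shared rises by this rule also include *Gm49369*, which overlaps *Ctsd*. Some genes that the rule named are not reported here. Shared sequence was measured as 31-base words of GENCODE vM21 transcripts. The edgeR, DESeq2 and limma fits were run on simulated data, and the exact permutation test was not. DESeq2 1.42.0, limma 3.58.1, other scalings and filters, omission of the mouse term and of each mouse were tried as alternatives. No columns of other samples were present.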

Additional observations from a re-analysis of the deposited data

How the results depend on the processing

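The count of genes whose response differed between the genotypes was 0 in the main edgeR fit, with other scalings, with the default filter (10004 genes), with only the 12 control and Ox-LDL libraries and in limma on the per-mouse differences. It was 2 in DESeq2 and 17 without a filter on low counts (22179 genes), and it ranged from 0 to 9 with each mouse left out. Without the replicate block it was 0, with 338 genes at an unadjusted p under 0.05. The WT count of 539 was 294 in DESeq2, 165 without the replicate block and 323 to 597 with each mouse left out. The KO count of 882 was 452 in DESeq2, 285 without the replicate block and 493 to 1076 with each mouse left out. The cause of these shifts was not tested. Of 1163 values of the difference over 83 named genes and 14 alternative settings, 18 passed the threshold only in the alternative. None of these genes passed it in the reported fit, so no call could be lost. The sign turned in 37 differences that were under 1 SE in the reported fit and in 1 larger one, *Gstp1* summed with *Gstp2* at -0.025. Among sums chosen after seeing the data, *Gm32687* with *Zfp433* reversed to -0.17. The median difference over all genes ranged from -0.021 to 0.010 over the alternatives, and depth limited the test most below 20 CPM.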
